A study of Mus musculus with 24 samples.

Results

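Kidney expression of the genes for glutathione and antioxidant enzymes was examined in 2 Schlager mouse strains, the hypertensive BPH/2J and the normotensive BPN/3J. The set was chosen by gene symbol. It holds every gene whose symbol begins with *Gst*, *Mgst*, *Gpx*, *Prdx* or *Txn*, the superoxide dismutases *Sod1*, *Sod2* and *Sod3*, and *Cat*, *Nnt*, *Gclc*, *Gclm*, *Gsr*, *Gss*, *Nqo1*, *Hmox1*, *Srxn1*, *Nfe2l2* and *Keap1*, where a probe set carries that symbol alone. This gave 66 genes of the 18782 with a probe set of their own. They are represented by 74 of the 28853 probe sets of the array, and the probe set with the highest mean was used for each gene. Kidneys came from mice 12 weeks old in 4 groups of 6, which were BPH/2J males, BPN/3J males, BPH/2J females and BPN/3J females. Each kidney was measured on 1 Affymetrix Mouse Gene 1.0 ST array. BPH/2J and BPN/3J are inbred lines bred for high and for normal blood pressure, and the labels name no treatment. The lines can also differ at loci unrelated to blood pressure, and these arrays cannot tell the 2 apart. Blood pressure was not measured in the mice whose kidneys were hybridised. All levels are deposited log2 values, so a difference of 1 is a doubling.

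Glutathione is a tripeptide that cells make from glutamate, cysteine and glycine, and its reduced form is the main thiol buffer of the cytosol and mitochondria. Glutathione transferases couple it to electrophiles, glutathione peroxidases use it to reduce peroxides, and peroxiredoxins do the same with electrons from thioredoxin. Superoxide dismutases and catalase remove superoxide and hydrogen peroxide directly. The transcription factor NRF2, which its partner KEAP1 holds back in unstressed cells, induces many of these genes. The proximal tubule, where oxygen use is high, is a main site of glutathione turnover in the kidney.

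The sex labels matched *Xist*, which lay between 12.26 and 12.51 in the female arrays, against 4.61 to 5.75 in the male arrays. The medians of the 24 arrays lay between 6.89 and 6.97, and arrays of a group correlated at 0.981 to 0.997 over all probe sets. RNA of neighbouring tissue was present at unequal levels. The mean of 23 hepatocyte markers reached 11.47 and 11.76 in BPN/3J female arrays 2 and 5, against 6.89 to 7.43 in the other 4 arrays of that group, and *Alb* was at 8.45 or above in every array. The mean of 10 adrenal cortex markers ranged from 6.06 to 9.71 in BPH/2J females and from 5.99 to 10.04 in BPN/3J females, while in males it spanned 6.14 to 8.57 for BPH/2J and 6.03 to 8.90 for BPN/3J. The mean of 7 fat markers lay between 8.61 and 9.63 in BPH/2J females, against 7.61 to 8.57 in BPN/3J females, so these groups did not overlap. In males it was 8.25 to 8.86 in BPH/2J and 7.53 to 8.84 in BPN/3J.

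The comparison of the strains asked which members differed between the hypertensive and the normotensive strain in each sex. In males, 16 members were higher and 4 lower in BPH/2J than in BPN/3J by limma with Benjamini-Hochberg adjustment over all probe sets, with members at an adjusted p under 0.05 termed called. These 20 members are 30.3% of the set, where 15.2% of all probe sets passed (7.48% higher and 7.7% lower). In females, 8 members were higher and 6 lower, 21.2% of the set where 14.5% of all probe sets passed (8.01% higher and 6.48% lower). All probe sets include many dim ones. Without probe sets below the 40th percentile of mean expression, 21 of 58 members were called in males and 19 of 58 in females. Of all probe sets kept, 27.1% passed in males and 25.7% in females. The median difference of the 66 members was 0.024 in males and 0.002 in females, and that of all probe sets was 0 in males and 0.015 in females. *Gpx8*, *Gsr*, *Gss*, *Gsto1*, *Gsto2*, *Mgst3* and *Nqo1* were higher in BPH/2J of both sexes and *Gstk1* and *Nnt* were lower in both. No member was called in opposite directions, 11 were called in males only, 5 in females only and 41 in neither sex. The groups did not overlap for 13 members in males and 12 in females, where 9.65% and 9.34% of all probe sets did not overlap. At a Bonferroni-adjusted p under 0.05, 6 members passed in males and 4 in females, beside 2.56% and 2.36% of all probe sets. In bulk kidney tissue, fewer cells of a type and less RNA per cell cannot be told apart.

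The fat markers moved with the female comparison, in which 4 of the 7 were higher in BPH/2J. With their mean as a covariate, an alternative chosen after seeing the data, 8 members were called in females (6 higher and 2 lower) and 6.09% of all probe sets. All 8 were among the 14, and they were the members called in both sexes with the exception of *Nqo1*. The female difference of *Nqo1* was 0.33 with the covariate (standard error 0.09, adjusted p = 0.0517) and 0.19 without it. As the fat means of the female groups did not overlap, this fit separates fat from strain poorly. In males 18 of the 20 calls were also made with the covariate, where 15% of all probe sets passed. Without BPN/3J female arrays 2 and 5, 11 of the 14 female calls were made, where 11.1% of all probe sets passed. *Nqo1* was not among these 11, with a difference of 0.13 (adjusted p = 0.172).

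**Figure D1:**
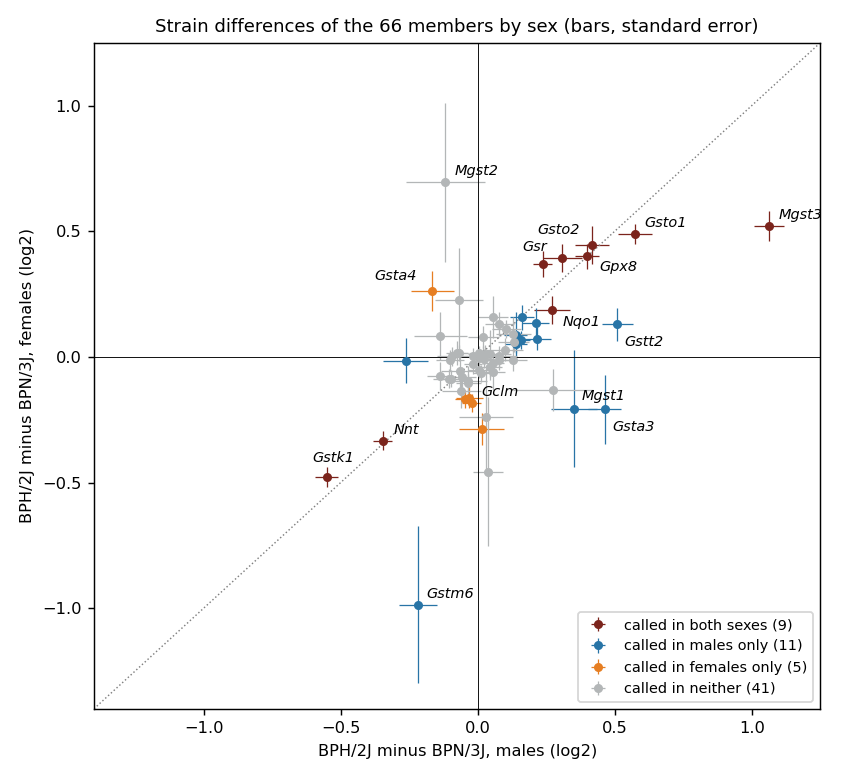
BPH/2J minus BPN/3J difference of males (x axis) and of females (y axis) for the 66 members, on the log2 scale. Each point is 1 gene, bars are standard errors, colours give the calls, and the dotted line marks equal differences; *Mgst3* lies to the right of the line at 1.06 in males and 0.52 in females, and *Gstk1* and *Nnt* lie near it below 0.

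*Mgst3*, a microsomal enzyme with glutathione transferase and peroxidase activity, had the largest strain difference of the set in males. Its lowest, median and highest levels were 10.81, 10.89 and 10.96 in BPH/2J males, against 9.66, 9.86 and 9.96 in BPN/3J males. In females they were 10.80, 11.02 and 11.07 in BPH/2J females, against 10.34, 10.45 and 10.61 in BPN/3J females. The groups did not overlap in either sex, and the level in BPN/3J males was below that of every other group. BPH/2J males were 2.09-fold higher, a difference of 1.06 (standard error 0.0549, adjusted p = 1.2e-08), and BPH/2J females 1.43-fold higher, a difference of 0.52 (standard error 0.059, adjusted p = 4.59e-05). The strain difference of females minus that of males was −0.54 (standard error 0.0805, adjusted p = 0.000217). It ranged from −0.60 to −0.51 over the alternatives run, and each of these called it.

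*Gsto1*, an omega class transferase that also reduces dehydroascorbate, was higher in BPH/2J of both sexes. Its lowest, median and highest levels were 9.63, 9.67 and 9.88 in BPH/2J males, against 8.92, 9.13 and 9.30 in BPN/3J males. In females they were 10.67, 10.76 and 10.83 in BPH/2J females, against 10.20, 10.27 and 10.33 in BPN/3J females, and the groups did not overlap in either sex. The differences were 0.57 (standard error 0.0617, adjusted p = 2.06e-05) in males and 0.49 (standard error 0.0402, adjusted p = 2.3e-06) in females, or 1.49-fold and 1.4-fold. Its neighbour in class, *Gsto2*, was also higher, by 0.42 in males and 0.45 in females.

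*Gstk1*, the kappa class transferase of mitochondria and peroxisomes, went the other way. It stood at 12.15, 12.21 and 12.30 in BPH/2J males, against 12.72, 12.75 and 12.84 in BPN/3J males, in the order lowest, median and highest. The female levels were 12.30, 12.43 and 12.51 in BPH/2J females, against 12.87, 12.89 and 12.96 in BPN/3J females. Every BPH/2J array was below every BPN/3J array of the same sex, with differences of −0.55 (standard error 0.0414, adjusted p = 6.18e-07) in males and −0.48 (standard error 0.0388, adjusted p = 2.02e-06) in females.

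*Gstt2*, a theta class transferase, and *Gsta3*, an alpha class transferase whose human counterpart has steroid isomerase activity, were higher in BPH/2J males. For *Gstt2* the lowest, median and highest levels were 10.77, 10.87 and 11.02 in BPH/2J males, against 10.31, 10.36 and 10.52 in BPN/3J males, with no overlap. The female groups overlapped, at 10.53, 10.74 and 10.85 in BPH/2J females, against 10.43, 10.61 and 10.72 in BPN/3J females. The difference was 0.51 (standard error 0.0568, adjusted p = 2.84e-05) in males and 0.13 (standard error 0.0665, adjusted p = 0.253) in females, and that of females minus that of males was −0.38 (standard error 0.0881, adjusted p = 0.0218). *Gsta3* was measured at 10.01, 10.18 and 10.31 in BPH/2J males, against 9.54, 9.71 and 9.80 in BPN/3J males, again with no overlap. In females it was at 10.54, 10.60 and 10.77 in BPH/2J females, against 10.57, 10.65 and 11.37 in BPN/3J females, where the 2 highest BPN/3J arrays were arrays 2 and 5. The difference in males was 0.46 (standard error 0.0613, adjusted p = 0.000132), that in females −0.21 (standard error 0.136, adjusted p = 0.382), and the female minus the male difference −0.67 (standard error 0.155, adjusted p = 0.0214). Without arrays 2 and 5 the female difference was 0.02 and the female minus the male difference −0.45 (adjusted p = 0.00479). With the fat covariate the interactions of *Gstt2* and *Gsta3* were not called. That of *Gstt2* was −0.26 (adjusted p = 0.299) and that of *Gsta3* −0.67 (standard error 0.191, adjusted p = 0.117), the same size as without the covariate with a larger error. The *Gsta3* interaction was not called in the t-test with unequal variances either (adjusted p = 0.132). In all, 3 members passed the interaction test, which is 4.55% of the set where 1.76% of all probe sets passed.

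Among the other transferases, *Gstp1*, the pi class enzyme, had 11.81, 11.89 and 11.99 in BPH/2J males, against 11.57, 11.66 and 11.79 in BPN/3J males, in the order lowest, median and highest. The male groups did not overlap, and the difference was 0.21 (standard error 0.049, adjusted p = 0.00915). In females it had 11.33, 11.48 and 11.57 in BPH/2J females, against 11.15, 11.36 and 11.45 in BPN/3J females, with a difference of 0.14 (standard error 0.06, adjusted p = 0.172). *Mgst1*, a microsomal transferase of the endoplasmic reticulum and outer mitochondrial membrane, was measured at 10.12, 10.18 and 10.30 in BPH/2J males, against 9.60, 9.83 and 10.14 in BPN/3J males. The male groups overlapped and differed by 0.35 (standard error 0.0846, adjusted p = 0.0118), which was not called in the t-test with unequal variances (adjusted p = 0.0572) or in the fit to all 24 arrays (adjusted p = 0.228). In females *Mgst1* was at 10.70, 10.98 and 11.19 in BPH/2J females, against 10.50, 10.98 and 11.96 in BPN/3J females, and the difference was −0.21 (standard error 0.233, adjusted p = 0.645). Without BPN/3J female arrays 2 and 5 it was 0.16. *Gsta4*, which conjugates the lipid peroxidation product 4-hydroxynonenal, was at 11.20, 11.60 and 11.74 in BPH/2J females, against 11.15, 11.29 and 11.39 in BPN/3J females. Its female difference of 0.26 (standard error 0.0797, adjusted p = 0.043) was called in 10 of 25 alternatives with Benjamini-Hochberg adjustment, as are all such counts here, and the male difference was −0.17 (standard error 0.0792, adjusted p = 0.207). All such counts include the alternative that admits probe sets with several symbols. It repeats the main fit, so its result for each gene is the main one by construction. Of the 18 cytosolic and mitochondrial transferases, 7 were called in males (5 higher in BPH/2J) and 5 in females (3 higher in BPH/2J). These are 38.9% and 27.8% of the 18, where 15.2% and 14.5% of all probe sets passed. Without dim probe sets, 27.1% and 25.7% of the probe sets kept passed in males and females. *Gstm1*, *Gstm2*, *Gstm3*, *Gstm4*, *Gstt1*, *Gstt3*, *Gstt4*, *Gstcd* and *Gstp3* were called in neither sex.

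**Figure D2:**
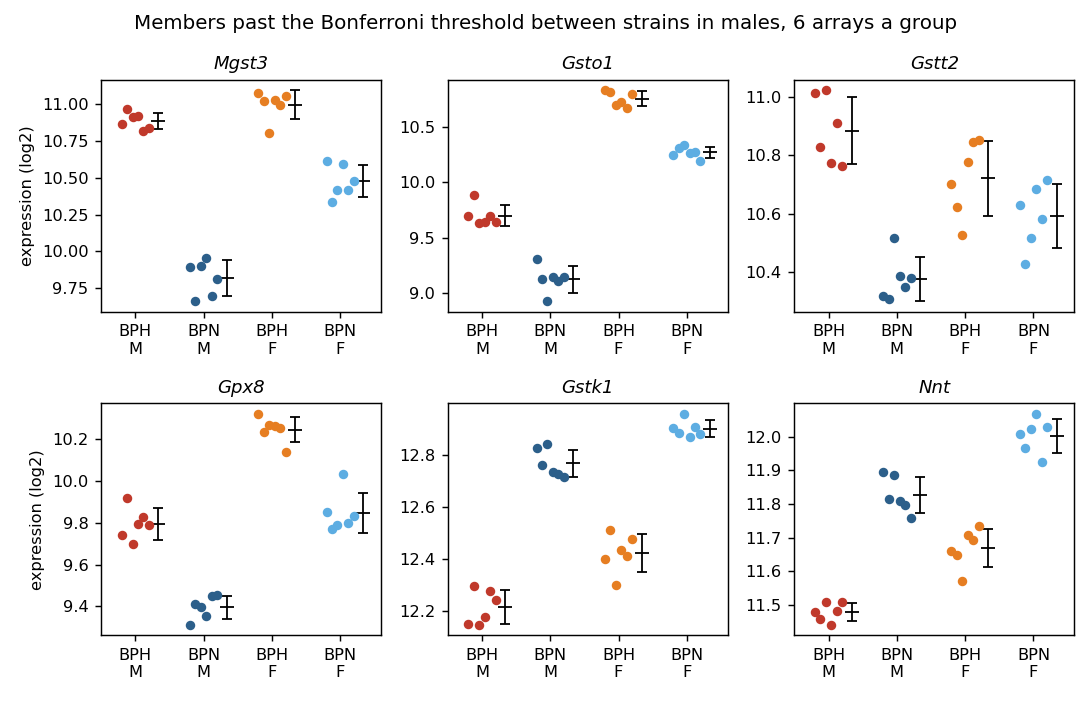
Log2 expression of *Mgst3*, *Gsto1*, *Gstt2*, *Gpx8*, *Gstk1* and *Nnt* in each array of BPH/2J males, BPN/3J males, BPH/2J females and BPN/3J females. Points are arrays, 6 a group, the bars beside them are the group mean and SD, and each panel has its own y axis that does not start at 0; the strains are apart in both sexes in 5 panels, and overlap in females for *Gstt2*.

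The promoters of the 3 transferases that passed a Bonferroni threshold in both sexes are shown because their transcripts differed between the strains in males and in females. They are the 150 bases before the annotated start in the reference strain, from RefSeq on build GRCm38.p6, and not the sequence of BPH/2J or BPN/3J. *Mgst3* is from chr1:167393842-167393991, minus strand, *Gsto1* from chr19:47854823-47854972, plus strand and *Gstk1* from chr6:42245785-42245934, plus strand. None of the 3 holds the core of the antioxidant response element that NRF2 binds (TGACNNNGC, searched on both strands) in its whole window of 300 bases.
Mgst3: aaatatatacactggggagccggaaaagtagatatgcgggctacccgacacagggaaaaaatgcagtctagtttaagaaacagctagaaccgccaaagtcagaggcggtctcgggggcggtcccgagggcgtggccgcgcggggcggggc
Gsto1: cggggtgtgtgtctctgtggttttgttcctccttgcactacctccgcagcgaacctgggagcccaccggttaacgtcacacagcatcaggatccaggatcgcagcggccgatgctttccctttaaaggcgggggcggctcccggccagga
Gstk1: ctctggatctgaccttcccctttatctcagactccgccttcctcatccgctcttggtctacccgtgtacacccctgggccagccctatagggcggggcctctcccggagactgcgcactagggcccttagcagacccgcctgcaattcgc

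The same 9-letter core was present in 12 of the 56 members with a promoter window, or 21.4%, against 14% of all 27025 genes with one. Of the 12, 6 were called between the strains in 1 sex (*Gclm*, *Gsta3*, *Gstm7*, *Mgst1*, *Txndc5* and *Txnrd1*), and the other 6 in neither. None of the 12 was called in both sexes. Of all 66 members, 11 were called in males only, 5 in females only, 9 in both sexes and 41 in neither. The 66 include 10 members that had no window and were not searched. Among those 10 are *Gsr* and *Nnt*, which were called in both sexes. Whether the core goes with the calls was not tested. The windows of *Gsta3*, *Gclm* and *Txnrd1* are shown as examples from the transferases, glutathione synthesis and the thioredoxin system. The core is in capitals, and it is read on the opposite strand in *Gclm* and *Txnrd1*. Counted from the start, with the base before it as −1, the core begins at −121 in *Gsta3*, −134 in *Gclm* and −92 in *Txnrd1*, for which 1 of 3 annotated starts is shown. *Gsta3* is from chr1:21240435-21240584, plus strand, *Gclm* from chr3:122245407-122245556, plus strand and *Txnrd1* from chr10:82859056-82859205, plus strand. The other 9 members with the core were *Gstm7*, *Mgst1*, *Nfe2l2*, *Prdx1*, *Sod1*, *Srxn1*, *Txndc11*, *Txndc2* and *Txndc5*. A match of these letters is a description of the reference sequence and not a measured site.
Gsta3: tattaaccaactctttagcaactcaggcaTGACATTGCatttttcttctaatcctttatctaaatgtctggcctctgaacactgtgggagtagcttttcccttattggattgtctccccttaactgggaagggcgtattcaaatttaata
Gclm: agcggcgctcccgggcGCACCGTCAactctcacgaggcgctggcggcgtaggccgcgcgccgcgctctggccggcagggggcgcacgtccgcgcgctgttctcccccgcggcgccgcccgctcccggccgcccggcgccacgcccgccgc
Txnrd1: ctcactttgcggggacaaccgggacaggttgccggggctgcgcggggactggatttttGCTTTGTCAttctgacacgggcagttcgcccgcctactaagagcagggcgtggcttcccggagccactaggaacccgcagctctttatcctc

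Of the 5 genes of glutathione synthesis and recycling, *Gss* and *Gsr* were higher and *Nnt* was lower in BPH/2J of both sexes. *Gss*, glutathione synthetase, had lowest, median and highest levels of 12.06, 12.10 and 12.18 in BPH/2J males, against 11.80, 11.88 and 11.91 in BPN/3J males. In females they were 11.62, 11.87 and 11.91 in BPH/2J females, against 11.38, 11.47 and 11.53 in BPN/3J females. The groups did not overlap in either sex, and the differences were 0.24 (standard error 0.0344, adjusted p = 0.000291) in males and 0.37 (standard error 0.052, adjusted p = 0.00028) in females. *Gsr*, which reduces oxidised glutathione with NADPH, was at 12.35, 12.50 and 12.63 in BPH/2J males, against 12.00, 12.19 and 12.33 in BPN/3J males. In females it was at 12.19, 12.27 and 12.48 in BPH/2J females, against 11.82, 11.86 and 12.03 in BPN/3J females. The strains did not overlap, with differences of 0.31 (standard error 0.0713, adjusted p = 0.00924) in males and 0.39 (standard error 0.0557, adjusted p = 0.000289) in females.

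*Nnt*, the transhydrogenase that makes NADPH in mitochondria, stood at 11.44, 11.48 and 11.51 in BPH/2J males, against 11.76, 11.81 and 11.89 in BPN/3J males, in the order lowest, median and highest. The female levels were 11.57, 11.68 and 11.73 in BPH/2J females, against 11.92, 12.02 and 12.07 in BPN/3J females. All BPH/2J arrays were below all BPN/3J arrays of their sex, with differences of −0.35 (standard error 0.0354, adjusted p = 1.21e-05) in males and −0.33 (standard error 0.0381, adjusted p = 4.75e-05) in females. A second probe set of *Nnt* had a mean of 7.22, and its differences of −0.08 in males and −0.01 in females were not called. *Gclc* and *Gclm* encode the catalytic and modifier subunits of glutamate-cysteine ligase, the first step of synthesis. *Gclm* was at 12.25, 12.33 and 12.36 in BPH/2J females, against 12.40, 12.52 and 12.55 in BPN/3J females with no overlap, a difference of −0.18 (standard error 0.0368, adjusted p = 0.00402). With the fat covariate this call was lost (−0.14, adjusted p = 0.263). In males *Gclm* was at 12.53, 12.60 and 12.65 in BPH/2J males, against 12.57, 12.61 and 12.66 in BPN/3J males, which differed by −0.02 (standard error 0.0348, adjusted p = 0.76). *Gclc* was at 12.31, 12.41 and 12.54 in BPH/2J males, against 12.27, 12.52 and 12.63 in BPN/3J males, and in females at 12.06, 12.38 and 12.66 in BPH/2J females, against 12.34, 12.38 and 12.62 in BPN/3J females. These groups overlapped, and the differences were −0.06 (standard error 0.0709, adjusted p = 0.637) in males and −0.06 (standard error 0.0857, adjusted p = 0.757) in females.

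Of the 8 glutathione peroxidases, *Gpx8*, an enzyme of the endoplasmic reticulum membrane, was higher in BPH/2J of both sexes. Its lowest, median and highest levels were 9.70, 9.79 and 9.92 in BPH/2J males, against 9.31, 9.40 and 9.45 in BPN/3J males. The female levels were 10.14, 10.26 and 10.32 in BPH/2J females, against 9.77, 9.82 and 10.04 in BPN/3J females, without overlap in either sex. The differences were nearly equal, at 0.40 (standard error 0.0439, adjusted p = 2.58e-05) in males and 0.40 (standard error 0.0488, adjusted p = 8.19e-05) in females. *Gpx1*, the cytosolic peroxidase, was at 13.01, 13.07 and 13.13 in BPH/2J males, against 12.95, 13.05 and 13.09 in BPN/3J males, and in females at 12.84, 12.90 and 12.92 in BPH/2J females, against 12.81, 12.88 and 12.93 in BPN/3J females. The plasma peroxidase *Gpx3*, which the proximal tubule secretes, was at 13.61, 13.71 and 13.78 in BPH/2J males, against 13.63, 13.71 and 13.76 in BPN/3J males, and in females at 13.69, 13.72 and 13.75 in BPH/2J females, against 13.73, 13.77 and 13.80 in BPN/3J females. *Gpx4*, which reduces lipid hydroperoxides in membranes, was at 12.11, 12.15 and 12.20 in BPH/2J males, against 12.11, 12.17 and 12.21 in BPN/3J males, and in females at 11.93, 12.03 and 12.08 in BPH/2J females, against 11.96, 12.06 and 12.12 in BPN/3J females. For these 3 genes the strains overlapped in both sexes, and the 6 differences ran from −0.05 to 0.02 with adjusted p-values from 0.3 to 0.96. *Gpx5* was lower in BPH/2J males (−0.26, adjusted p = 0.045). It is 1 of 8 members below the 40th percentile of mean expression over all probe sets.

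None of the 4 genes for superoxide dismutases and catalase was called between the strains in either sex by the main fit. Of all probe sets, 15.2% passed in males and 14.5% in females, and 4 genes are too few to set against these shares. The cytosolic *Sod1* had lowest, median and highest levels of 13.39, 13.44 and 13.48 in BPH/2J males, against 13.40, 13.44 and 13.45 in BPN/3J males, and in females of 13.27, 13.32 and 13.38 in BPH/2J females, against 13.30, 13.34 and 13.36 in BPN/3J females. The mitochondrial *Sod2* was at 12.72, 12.72 and 12.75 in BPH/2J males, against 12.74, 12.83 and 12.89 in BPN/3J males, and in females at 12.69, 12.71 and 12.73 in BPH/2J females, against 12.70, 12.80 and 12.86 in BPN/3J females. Its differences of −0.10 (standard error 0.0331, adjusted p = 0.065) in males and −0.09 (standard error 0.0332, adjusted p = 0.113) in females were the largest of the 4 in each sex, and the groups overlapped. The extracellular *Sod3* was at 11.95, 12.01 and 12.06 in BPH/2J males, against 11.84, 11.98 and 12.01 in BPN/3J males, and in females at 11.79, 11.81 and 11.92 in BPH/2J females, against 11.81, 11.84 and 11.91 in BPN/3J females, and differed by 0.06 (standard error 0.0407, adjusted p = 0.433) in males and −0.02 (standard error 0.035, adjusted p = 0.729) in females. Catalase (*Cat*) was at 13.42, 13.46 and 13.47 in BPH/2J males, against 13.38, 13.44 and 13.48 in BPN/3J males, and in females at 13.26, 13.37 and 13.40 in BPH/2J females, against 13.37, 13.42 and 13.46 in BPN/3J females. It differed by 0.01 (standard error 0.0313, adjusted p = 0.844) in males and −0.07 (standard error 0.0337, adjusted p = 0.243) in females. At an unadjusted p under 0.05 in limma, 1 of the 4 passed in each sex, which was *Sod2*. It was called in males by the t-tests with unequal and with pooled variance (adjusted p = 0.0265 and 0.00709), and in females by the second (adjusted p = 0.0329). Limma without dim probe sets also called *Sod2* lower in BPH/2J (adjusted p = 0.0221 in males and 0.0484 in females). So did the fit to all 24 arrays (0.018 and 0.0411) and the trended, robust fit (0.00651 and 0.0205). In all, 7 of 24 alternatives called *Sod2* in males and 5 of 25 in females, while 17 and 20 did not.

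Of the 12 peroxiredoxin, sulfiredoxin, thioredoxin and thioredoxin reductase genes, 3 were higher in BPH/2J males by limma, and in females none was called. Of all probe sets, 15.2% passed in males and 14.5% in females. Counted among the 12 are the pseudogene *Prdx6-ps2* and *Txnip*, which encodes a thioredoxin-interacting protein and not a thioredoxin. In females 2 of the 12 passed an unadjusted p under 0.05 (*Txnrd2* and *Txnrd3*) and 1 was called by each t-test, and none of the 12 passed the interaction test. *Txnrd1*, the cytosolic thioredoxin reductase, was higher in BPH/2J males, with lowest, median and highest levels of 10.11, 10.17 and 10.25 in BPH/2J males, against 9.83, 9.94 and 10.10 in BPN/3J males. The male groups did not overlap and differed by 0.22 (standard error 0.0478, adjusted p = 0.00665). In females it was at 9.86, 9.97 and 10.04 in BPH/2J females, against 9.73, 9.89 and 9.96 in BPN/3J females, a difference of 0.07 (standard error 0.0464, adjusted p = 0.378). *Prdx3* and *Prdx4*, the peroxiredoxins of mitochondria and of the endoplasmic reticulum, were higher in BPH/2J males by 0.16 and 0.14. The cytosolic *Prdx1* was at 12.49, 12.52 and 12.60 in BPH/2J males, against 12.39, 12.47 and 12.67 in BPN/3J males, and in females at 12.32, 12.38 and 12.46 in BPH/2J females, against 12.29, 12.38 and 12.46 in BPN/3J females, differing by 0.03 (standard error 0.0479, adjusted p = 0.793) and 0.01 (standard error 0.0382, adjusted p = 0.911). Thioredoxin (*Txn1*) was at 13.83, 13.87 and 13.96 in BPH/2J males, against 13.83, 13.88 and 13.96 in BPN/3J males, and in females at 13.86, 13.91 and 13.96 in BPH/2J females, against 13.88, 13.89 and 13.93 in BPN/3J females, differing by 0.01 (standard error 0.0386, adjusted p = 0.946) and 0.01 (standard error 0.03, adjusted p = 0.824). *Srxn1*, sulfiredoxin, which repairs overoxidised peroxiredoxins, was at 9.79, 9.87 and 9.93 in BPH/2J males, against 9.60, 9.74 and 9.89 in BPN/3J males, and in females at 9.72, 9.78 and 9.82 in BPH/2J females, against 9.67, 9.78 and 9.91 in BPN/3J females. Its difference in males was 0.13 (standard error 0.0496, adjusted p = 0.104), and in females −0.01 (standard error 0.0418, adjusted p = 0.88). Of the 12 thioredoxin-like and thioredoxin domain genes, *Txndc16* and *Txnl1* were higher in BPH/2J males by 0.16 and 0.14, and *Txndc5* and *Txndc17* were lower in BPH/2J females, with differences of −0.16 and −0.17. *Txndc5* is a protein disulfide isomerase of the endoplasmic reticulum.

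The NRF2 regulators themselves were not called between the strains. *Nfe2l2*, which encodes NRF2, had lowest, median and highest levels of 11.22, 11.37 and 11.55 in BPH/2J males, against 11.18, 11.23 and 11.29 in BPN/3J males, and in females of 11.50, 11.53 and 11.58 in BPH/2J females, against 11.40, 11.47 and 11.57 in BPN/3J females. Its differences were 0.13 (standard error 0.0567, adjusted p = 0.157) in males and 0.06 (standard error 0.0368, adjusted p = 0.371) in females. *Keap1* was at 8.57, 8.63 and 8.71 in BPH/2J males, against 8.53, 8.65 and 8.81 in BPN/3J males, and in females at 8.43, 8.52 and 8.58 in BPH/2J females, against 8.47, 8.50 and 8.56 in BPN/3J females, with differences of −0.02 (standard error 0.0473, adjusted p = 0.868) and 0.00 (standard error 0.0342, adjusted p = 0.971). Of the inducible enzymes, *Nqo1*, a quinone reductase, was higher in both sexes. It was at 9.64, 9.84 and 10 in BPH/2J males, against 9.44, 9.57 and 9.66 in BPN/3J males, and in females at 9.58, 9.69 and 9.83 in BPH/2J females, against 9.35, 9.55 and 9.60 in BPN/3J females, with overlap in each sex. Its differences were 0.27 (standard error 0.0646, adjusted p = 0.0112) in males and 0.19 (standard error 0.0556, adjusted p = 0.0403) in females, and the female one was called in 11 of 25 alternatives. Without BPN/3J female arrays 2 and 5 the female difference of *Nqo1* was 0.13 (standard error 0.053, adjusted p = 0.172). *Hmox1*, heme oxygenase 1, was at 9.19, 9.65 and 10.20 in BPH/2J males, against 8.96, 9.44 and 9.49 in BPN/3J males, and in females at 8.21, 8.50 and 8.69 in BPH/2J females, against 8.49, 8.60 and 8.70 in BPN/3J females. It differed by 0.28 (standard error 0.146, adjusted p = 0.259) in males and −0.13 (standard error 0.0835, adjusted p = 0.365) in females.

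Other genes of the same pathways were read from lists chosen with earlier results of these arrays known. Of 20 measured genes of glutathione breakdown, transport and use, 11 were called in males, 5 of them higher in BPH/2J and 6 lower, and 8 in females, 3 of them higher and 5 lower. These are 55% and 40% of the list, where 15.2% and 14.5% of all probe sets passed in males and females. *Chac1* and *Chac2*, which cleave glutathione in the cytosol, differed by −0.70 and −0.33 in males and by −0.45 and −0.30 in females. *Ltc4s*, leukotriene C4 synthase, differed by −0.60 in males and −0.57 in females. *Ggct*, a gamma-glutamyl cyclotransferase, was higher by 0.41 in males and 0.81 in females. All 8 of these differences were called. Of 8 glutaredoxins and methionine sulfoxide reductases, 2 were higher (*Msrb3* by 0.30 and *Msrb2* by 0.18) and 1 was lower (*Msrb1*, −0.31) in males, and *Msrb3* alone was called in females (0.30), 37.5% and 12.5% of the list. Of 12 genes of NADPH supply, 2 were higher and 1 lower in males and 3 were higher and 2 lower in females, 25% and 41.7% of the list. Malic enzyme *Me1* was higher by 0.20 in males and 0.28 in females, transketolase *Tkt* by 0.32 in females, and the NAD kinase *Nadk2* by 0.16 in males and 0.15 in females. *H6pd*, which supplies NADPH in the endoplasmic reticulum, was lower (−0.16 in males and −0.16 in females).

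Of 25 other NRF2-responsive genes, 7 were called in males, 5 of them higher in BPH/2J and 2 lower, and 5 in females, all higher in BPH/2J, 28% and 20% of the list. The largest differences among those called were in *Cbr3*, a carbonyl reductase (0.51 in females), *Osgin1* (−0.49 in males), *Ptgr1*, prostaglandin reductase 1 (0.27 in males and 0.42 in females) and *Tkt*. This list repeats *Slc7a11*, *Pgd*, *Me1*, *Tkt* and *Taldo1* from the lists above. Among these repeats, *Me1* was called in both sexes, *Tkt* in females and *Slc7a11* in males. Without dim probe sets, 27.1% of the probe sets kept passed in males and 25.7% in females. Of 14 genes of NADPH oxidases and other superoxide sources, 2 were lower in each sex and none was higher. These are 14.3% of the list, beside 15.2% of all probe sets in males and 14.5% in females. They were *Cybb*, the catalytic subunit of the phagocyte oxidase (−0.51 in males and −0.42 in females), and xanthine dehydrogenase *Xdh* (−0.45 in males and −0.59 in females). Of 10 macrophage markers, 5 were called in males (1 higher in BPH/2J, 4 lower) and 3 in females (all lower). Their mean was 7.66 to 7.87 for BPH/2J and 7.75 to 7.91 for BPN/3J in males, and 7.71 to 8.02 for BPH/2J and 7.75 to 8.29 for BPN/3J in females, and its part in the *Cybb* difference was not tested.

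The sexes were then compared within each strain on arrays that the strain comparisons also use. In BPH/2J, 22 members were higher and 18 lower in females than in males, 60.6% of the set where 28.9% of all probe sets passed (15.6% higher and 13.4% lower). With arrays shifted to a common median the split was 17 higher and 24 lower, where 29.7% of all probe sets passed. In BPN/3J, 20 were higher and 12 lower in females, 48.5% of the set where 29.2% of all probe sets passed (14.4% higher and 14.8% lower). Without probe sets below the 40th percentile of mean expression, 43 of 58 members were called in BPH/2J and 34 of 58 in BPN/3J. Of all probe sets kept, 50% passed in BPH/2J and 48.8% in BPN/3J. The groups did not overlap for 29 members in BPH/2J and 28 in BPN/3J, where 18.2% and 17.6% of all probe sets did not. The median difference of the set was 0.005 in BPH/2J and 0.042 in BPN/3J, and that of all probe sets was −0.003 in BPH/2J and −0.02 in BPN/3J. The fat markers were 5 of 7 higher in BPH/2J females, and with their mean as a covariate 26 of the 40 calls in BPH/2J were made and 32 of the 32 in BPN/3J, where 16.2% and 27.7% of all probe sets passed. With the hepatocyte and adrenal cortex means as covariates, 28 of the calls in BPH/2J and 29 of those in BPN/3J were made, where 21.8% and 28.3% of all probe sets passed. The mean of 12 proximal tubule markers was 12.27 to 12.31 in BPH/2J females, against 13.03 to 13.10 in BPH/2J males. It was 12.28 to 12.40 for females of BPN/3J, against 13.06 to 13.15 in BPN/3J males. Of these 12 markers, 4 were higher and 7 lower in BPH/2J females and 4 were higher and 6 lower in BPN/3J females, with median differences of −0.10 in BPH/2J and −0.13 in BPN/3J. The gap in the mean rested largely on *Slc7a13*, an amino acid transporter, which differed by −6.05 in BPH/2J and −6.92 in BPN/3J, and on *Cyp2e1*, a cytochrome P450 (−2.09 and −1.22). *Slc22a6*, *Acsm2*, *Slc5a2* and *Kap* were also lower in females of both strains. Their differences in BPH/2J and BPN/3J were −0.91 and −0.98 for *Slc22a6*, −0.76 and −0.82 for *Acsm2*, −0.26 and −0.27 for *Slc5a2*, and −0.10 and −0.19 for *Kap*. *Lrp2*, *Cubn*, *Slc22a8* and *Slc5a12*, which encode transport proteins of the tubule, were higher in females of both strains. The part of these markers in the sex differences was not tested.

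The largest sex difference of the set in each strain was that of *Gsta4*, which had lowest, median and highest levels of 11.20, 11.60 and 11.74 in BPH/2J females, against 9.45, 9.63 and 9.82 in BPH/2J males. In BPN/3J they were 11.15, 11.29 and 11.39 in BPN/3J females, against 9.66, 9.78 and 9.95 in BPN/3J males. Females were 3.75-fold higher in BPH/2J and 2.79-fold higher in BPN/3J, with differences of 1.91 (standard error 0.0958, adjusted p = 1.02e-08) and 1.48 (standard error 0.0587, adjusted p = 1.11e-09) and no overlap. *Gsto1* was higher in females by 1.06 (standard error 0.0501, adjusted p = 5.68e-09) in BPH/2J and 1.15 (standard error 0.0543, adjusted p = 5.71e-09) in BPN/3J, so that its levels, given above, fell into 4 groups that did not overlap. *Mgst1* was higher in females of both strains, by 0.75 (standard error 0.0824, adjusted p = 1.48e-05) and 1.31 (standard error 0.233, adjusted p = 0.000832), and *Gsta3* by 0.47 (standard error 0.0595, adjusted p = 5.33e-05) and 1.14 (standard error 0.137, adjusted p = 3.3e-05). Without BPN/3J female arrays 2 and 5 the BPN/3J differences were 0.94 for *Mgst1* and 0.91 for *Gsta3*, both called. *Mgst3* was higher in BPN/3J females (0.65, standard error 0.0642, adjusted p = 5.88e-06), and its sex difference in BPH/2J was 0.11 (standard error 0.0486, adjusted p = 0.117), which was called with quantile normalisation (adjusted p = 0.0397). *Gstt2* was higher in BPN/3J females (0.22, standard error 0.0549, adjusted p = 0.0091), and differed by −0.16 (standard error 0.0678, adjusted p = 0.0925) in BPH/2J, which was not called. *Gstp1* was lower in females, with differences of −0.42 (standard error 0.0539, adjusted p = 5.57e-05) in BPH/2J and −0.34 (standard error 0.0554, adjusted p = 0.000376) in BPN/3J, with no overlap. *Gstk1* was higher in females of both strains (0.21 and 0.13).

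*Mgst2*, a microsomal transferase, was higher in BPH/2J females than in BPH/2J males by 0.89 (standard error 0.308, adjusted p = 0.0449). This was called in 9 of 23 alternatives. The t-tests with unequal and with pooled variance did not call it (adjusted p = 0.117 and 0.0853). *Mgst2* had a mean of 6.03 and is among the members below the 40th percentile. Its levels were 5.58, 6.96 and 7.49 in BPH/2J females, against 5.31, 5.73 and 6.05 in BPH/2J males, and the groups overlapped. The 4 BPH/2J female arrays with an adrenal cortex mean between 9.49 and 9.71 had 6.87, 7.05, 7.07 and 7.49, and the other 2, with means of 6.60 and 6.06, had 5.66 and 5.58. Of the BPN/3J female arrays, 3 had adrenal cortex means of 9.73 to 10.04, and *Mgst2* was at 6.08 to 6.38 in them. The same 4 BPH/2J arrays had fat means of 9.11 to 9.63, against 8.92 and 8.61 in the other 2 of that group. The difference was 0.34 (adjusted p = 0.106) with the hepatocyte and adrenal cortex means as covariates and −0.20 (adjusted p = 0.713) with the fat mean. In BPN/3J *Mgst2* was at 5.56, 5.88 and 6.38 in BPN/3J females, against 5.51, 5.89 and 6.13 in BPN/3J males, and the difference was 0.08 (standard error 0.159, adjusted p = 0.75).

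**Figure D3:**
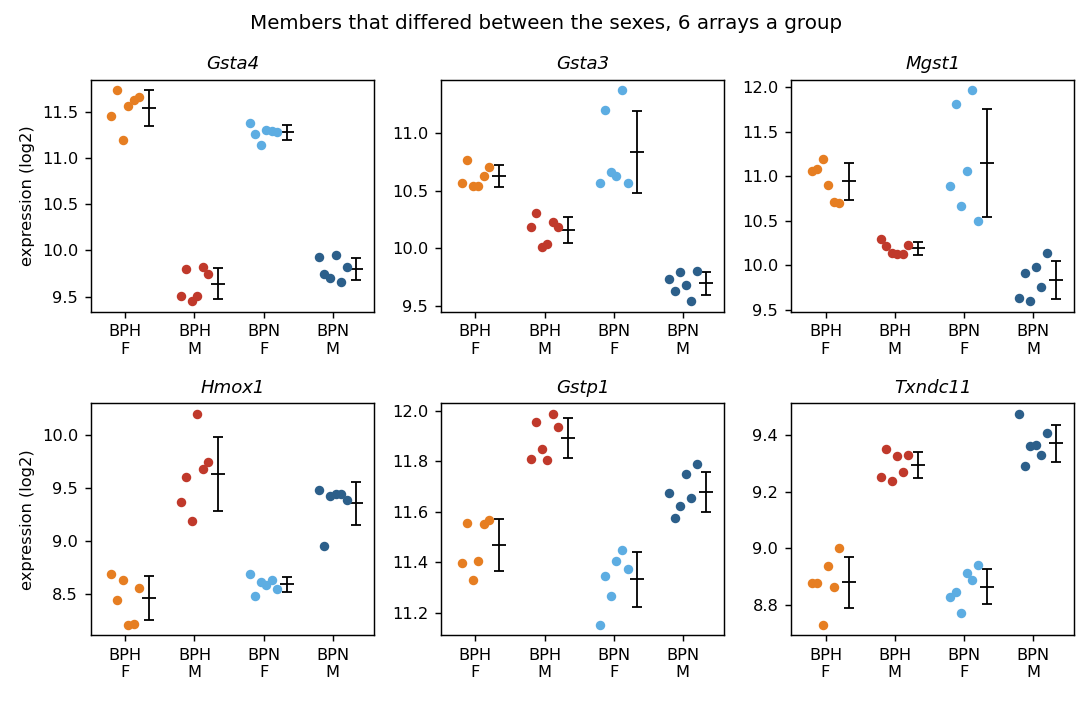
Log2 expression of *Gsta4*, *Gsta3*, *Mgst1*, *Hmox1*, *Gstp1* and *Txndc11* in each array of BPH/2J females, BPH/2J males, BPN/3J females and BPN/3J males. Points are arrays, 6 a group, bars are the group mean and SD, and the y axes do not start at 0; females are above males for the genes of the upper panels and below them for those of the lower panels, and 2 BPN/3J female arrays stand apart for *Gsta3* and *Mgst1*.

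Outside the transferases, the largest sex difference was in *Hmox1*, which was lower in females. Its lowest, median and highest levels were 8.21, 8.50 and 8.69 in BPH/2J females, against 9.19, 9.65 and 10.20 in BPH/2J males. In BPN/3J they were 8.49, 8.60 and 8.70 in BPN/3J females, against 8.96, 9.44 and 9.49 in BPN/3J males. The sexes did not overlap in either strain, and females were 2.25-fold lower in BPH/2J and 1.7-fold lower in BPN/3J, with differences of −1.17 (standard error 0.148, adjusted p = 4.98e-05) and −0.77 (standard error 0.0816, adjusted p = 1.21e-05). *Txndc11*, a thioredoxin domain protein of the endoplasmic reticulum, was lower in females, at 8.73, 8.88 and 9.001 in BPH/2J females, against 9.24, 9.30 and 9.35 in BPH/2J males. In BPN/3J it was at 8.77, 8.87 and 8.94 in BPN/3J females, against 9.29, 9.36 and 9.47 in BPN/3J males, and the differences were −0.41 (standard error 0.0454, adjusted p = 1.52e-05) and −0.51 (standard error 0.042, adjusted p = 1.23e-06). *Gss* was lower in females of both strains (−0.28, standard error 0.0499, adjusted p = 0.000944, and −0.41, standard error 0.0369, adjusted p = 2.89e-06), and so were *Gsr* (−0.20 and −0.29) and *Gclm* (−0.28 and −0.12). The *Gsr* call in BPH/2J was not made in 7 of 24 alternatives, and the *Gclm* call in BPN/3J in 10 of 25. *Nnt* was higher in females of both strains (0.19 and 0.18). Its second probe set differed by 0.04 and −0.04, not called, and with the mean of both probe sets the differences were 0.11 (adjusted p = 0.0665) and 0.07 (adjusted p = 0.36). *Gpx8* was higher in females by 0.45 (standard error 0.044, adjusted p = 5.19e-06) in BPH/2J and 0.45 (standard error 0.0486, adjusted p = 1.35e-05) in BPN/3J, beside strain differences of 0.40 in each sex.

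*Gpx1*, *Gpx4*, *Sod1* and *Keap1* were lower in females of both strains, with differences from −0.18 to −0.10. In BPN/3J the calls of *Gpx4*, *Sod1* and *Keap1* were lost in some alternatives with Benjamini-Hochberg adjustment, and that of *Gpx1* in none of these, though it did not pass the Bonferroni threshold. In BPH/2J the calls were lost in 7 of 24 alternatives for *Keap1*, 6 for *Sod1*, 2 for *Gpx4* and 1 for *Gpx1*. A second probe set of *Sod1*, with a mean of 12.55, differed by −0.095 in BPH/2J and −0.036 in BPN/3J, neither called. *Sod3* was lower in BPH/2J females (−0.18, standard error 0.036, adjusted p = 0.00202) and differed by −0.10 (standard error 0.0396, adjusted p = 0.0829) in BPN/3J. *Nfe2l2* was higher in females, by 0.18 (standard error 0.055, adjusted p = 0.0261) in BPH/2J, where 8 of 24 alternatives did not call it, and by 0.25 (standard error 0.0395, adjusted p = 0.000315) in BPN/3J. *Txnrd1* and *Prdx1* were lower in BPH/2J females (−0.21 and −0.14) and were not called in BPN/3J. A second probe set of *Prdx1*, with a mean of 12.18, differed by −0.052 in BPH/2J (adjusted p = 0.39). The *Prdx1* call was lost with the mean of both probe sets (−0.095, adjusted p = 0.0784) and with quantile normalisation (adjusted p = 0.159). *Cat* was lower in BPH/2J females, with a difference of −0.10 (standard error 0.0329, adjusted p = 0.0384), a call that 14 of 24 alternatives did not make, and *Sod2*, *Gpx3*, *Gclc*, *Txn1* and *Srxn1* were called in neither strain. The sex difference was called as unequal between the strains for *Mgst3*, *Gsta3* and *Gstt2*, by the interaction test given above, which is the same contrast.

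**Figure D4:**
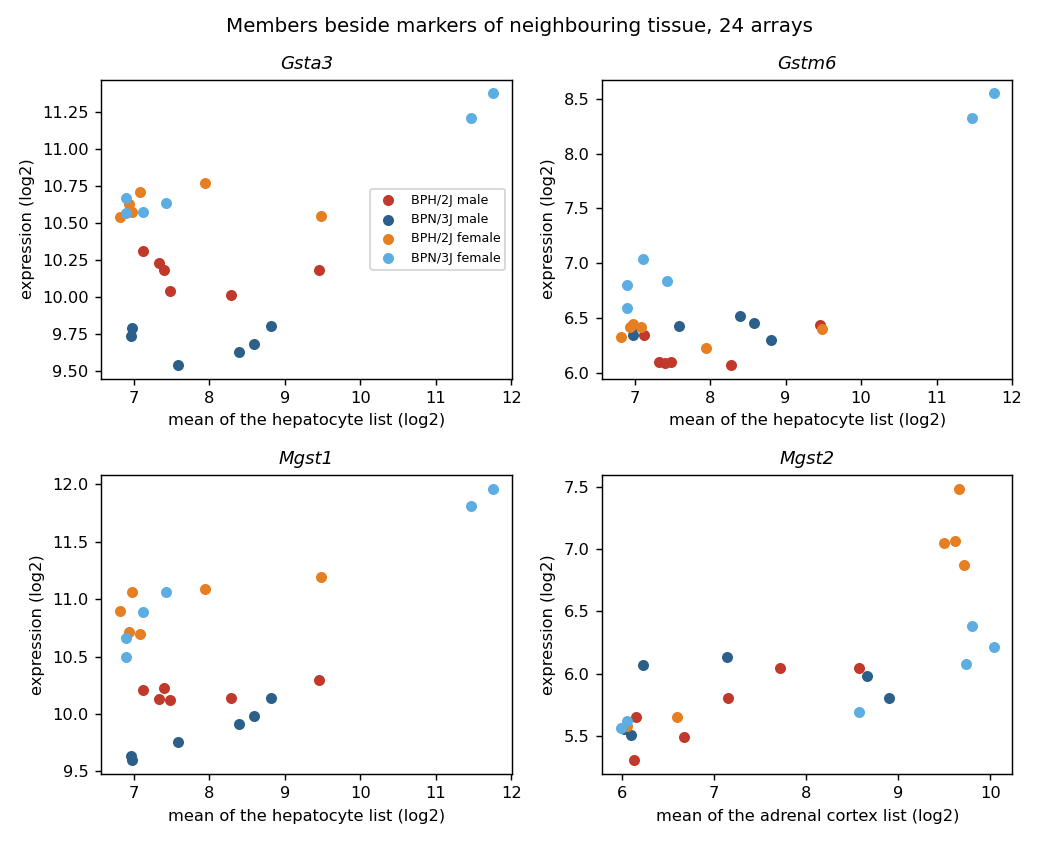
Log2 expression of *Gsta3*, *Gstm6* and *Mgst1* against the mean of 23 hepatocyte markers, and of *Mgst2* against the mean of 10 adrenal cortex markers, in 24 arrays coloured by group. Each point is 1 array; BPN/3J female arrays 2 and 5, with hepatocyte means of 11.47 and 11.76, are highest of all arrays for *Gsta3*, *Gstm6* and *Mgst1*, and *Mgst2* exceeds 6.5 in 4 BPH/2J female arrays with adrenal cortex means above 9.4.

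In BPN/3J females, arrays 2 and 5 were both above the other 4 arrays for 9 members and both below them for 9 members. *Gsta3* was at 11.20 and 11.37 in these arrays, against 10.57 to 10.67 in the others. *Mgst1* was at 11.81 and 11.96, against 10.50 to 11.06. *Gstm6*, a mu class transferase, was at 8.33 and 8.55, against 6.59 to 7.04, and *Gstp3* at 6.78 and 6.81, against 5.29 to 5.35. These arrays were also lowest in the group for *Mgst3*, *Gss*, *Nnt*, *Nqo1* and *Sod2*. Over the 66 members the median SD within a group was 0.07 to 0.09, and a range above 1 was found for 2 members in BPH/2J females, 4 in BPN/3J females, 1 in BPH/2J males and none in BPN/3J males.

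Probe sets that carry several symbols are not members, and transcripts of near-identical genes cannot be told apart on them. The 4 probe sets shared by *Gsta1*, *Gsta2* and predicted genes were higher in BPH/2J by 0.45 to 0.59 in males and 0.28 to 0.41 in females. They were higher in females by 1.70 to 1.86 in BPH/2J and 1.87 to 2.05 in BPN/3J, and all 16 differences were called. The 2 probe sets shared by *Gstp1* and *Gstp2* were higher in BPH/2J by 0.25 to 0.28 in males and 0.23 to 0.25 in females, all called. Of the 8 members with a second probe set, *Prdx2* was the one whose second probe set was called between the strains where the first was not (−0.20 in males, adjusted p = 0.00793).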

How the data were processed

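The members and the gene lists were chosen with earlier results of these data known. The authors normalised the arrays by robust multiarray analysis, which yields log2 expression, and deposited that; its version was not given in the sources used here. Deposited values were used with no further filter or scaling. Each array is 1 mouse, so replicates are separate animals. Gene symbols came from the array annotation, in which 73.3% of probe sets carry exactly 1 symbol. Probe sequences, and differences of the strains from them, were not analysed here. No scan dates or batches were used here.

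Strains were compared within each sex, and sexes within each strain, on 12 arrays, and the strain-by-sex interaction on all 24, by limma 3.58.1 in R 4.3.3 (lmFit and eBayes, two-sided, no covariate). Adjusted p-values are Benjamini-Hochberg over all 28853 probe sets and were called under 0.05. The authors' methods name a t-test with Bonferroni adjustment, which was an alternative. Levels of all 6 arrays are given as lowest, median and highest for members past a Bonferroni threshold in a strain comparison, the 3 largest called in each direction of a sex comparison, members called in the interaction, and a fixed list of 20 enzymes and regulators. Up to 4 called genes with the largest strain difference were named per pathway list. Members named outside this rule were chosen after their values were seen. The fits were tested on simulated data. Promoters are RefSeq windows on GRCm38.p6 from 250 bases before to 50 bases after the start. Plots used matplotlib 3.10.9 under Python 3.11.15. Blood pressure and qPCR measurements were not used here.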

Additional observations from a re-analysis of the deposited data

Results flagged for a closer look

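The strain difference of females minus that of males passed the interaction test for 3 members. It was −0.54 for *Mgst3* (adjusted p = 0.000217), −0.67 for *Gsta3* (adjusted p = 0.0214) and −0.38 for *Gstt2* (adjusted p = 0.0218), on the log2 scale by limma with Benjamini-Hochberg adjustment. In each of them the strain difference was larger in males.

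In 8 of 124 groups of 6 arrays, 31 named members in 4 groups, 1 array stood apart from the other 5 by Dixon's criterion, where chance alone gives about 1 in 20. *Mgst3* was at 10.80 in BPH/2J female array 3, against 10.99 to 11.07 in the others, and *Gss* at 11.62 in the same array, against 11.82 to 11.91. *Cat* was at 13.26 in that array too, against 13.35 to 13.40. That array had a hepatocyte marker mean of 9.48, the highest of its group. *Cat* was at 13.42 in BPH/2J male array 4, against 13.45 to 13.47. *Gsto1* was at 9.88 in BPH/2J male array 2, against 9.63 to 9.70. *Gstt2* was at 10.52 in BPN/3J male array 3, against 10.31 to 10.38 in the others. *Hmox1* was at 8.96 in BPN/3J male array 2, against 9.39 to 9.49. *Gpx8* was at 10.04 in BPN/3J female array 4, against 9.77 to 9.85.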

How the results depend on the processing

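At a Bonferroni threshold 6 members were called between the strains in males and 4 in females, 8 between the sexes in BPH/2J and 12 in BPN/3J, and 1 in the interaction. In the same order, 2.56%, 2.36%, 4.72%, 4.74% and 0.36% of all probe sets passed. The interaction called 5 members without dim probe sets (3.67% of the probe sets kept) and 5 with a trended and robust variance (2.11% of all probe sets). With the fat marker mean as a covariate, chosen after seeing the data, 8 members were called between the strains in females, 26 between the sexes in BPH/2J and 1 in the interaction (6.09%, 16.2% and 0.946% of all probe sets), and the sex difference of *Mgst2* in BPH/2J was −0.20. With each array left out in turn the counts were 16 to 18 between the strains in males, where the full set gave 20, and 12 to 15 in females, where it gave 14. They were 33 to 36 between the sexes in BPH/2J (40), 29 to 32 in BPN/3J (32) and 3 to 4 in the interaction (3). Of all probe sets, 12.9% to 14.2% then passed between the strains in males and 12.1% to 13.6% in females. Between the sexes 25.5% to 27.5% passed in BPH/2J and 26.3% to 28.2% in BPN/3J, and in the interaction 1.47% to 1.85%. Shifting arrays to a common median gave 17 higher and 24 lower in BPH/2J females, against 22 and 18, and 29.7% of all probe sets passed. Deviations of arrays that share a replicate number correlated at −0.567 to 0.444, above 0.1 in 0 of 6 pairs between the strains in males and 4 of 6 in females, and in 3 of 6 between the sexes in each strain. In females 4 of 6 arrays correlated best with their own number. The labels name nothing that a number shares, so the numbers were not taken as pairs. With the number as a replicate block the counts were 15 and 14 for the strains in males and females, 32 and 29 for the sexes in BPH/2J and BPN/3J, and 4 in the interaction. The shares of all probe sets were 12.1%, 12.4%, 25.4%, 27.4% and 1.68% in that order. The number of arrays, 6 a group, limits precision, and 8 members are below the 40th percentile of mean expression.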
